A study of Mus musculus with 6 samples.

Results

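The late step of white adipogenesis was examined by setting the circular RNAs (circRNAs) of day 8 (D8) against those of day 4 (D4). The comparison uses 4 of the 6 libraries of the study, 2 for each of these days, and takes in every circRNA of the deposited table. That table lists 3662 circRNAs, of which 1407 had enough reads to be tested. The 2 libraries of day 0 (D0), before differentiation, helped to estimate the spread between replicates and also counted in the filter on low counts. A fit of D4 and D8 only tested 1122 circRNAs.

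All cells were primary cultures of the stromal vascular fraction of inguinal white fat from 6-week-old female C57BL/6 mice (C57BL/6J in the study's methods). This fraction holds the preadipocytes, and can also hold fibroblasts, pericytes, endothelial cells and macrophages. D4 cells had spent 4 days in induction medium with insulin, dexamethasone (a synthetic glucocorticoid) and 3-isobutyl-1-methylxanthine (IBMX, which blocks phosphodiesterases and so keeps cAMP high). D8 cells had the same induction and then 4 more days in differentiation medium with 200 nM insulin and 10 nM triiodothyronine (T3), without dexamethasone or IBMX. The 2 days therefore differ in time in culture and in medium together, and the parts of these cannot be told apart. The study calls the replicates of a day biological, but the labels do not say whether they came from separate animals or cultures, so p-values measure the spread between these libraries only. Ribosomal and linear RNA were removed before sequencing, so the linear transcripts of the same genes were not measured here.

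A circRNA forms when the end of an exon is joined backwards to where that exon, or one before it, begins within its gene, the parental gene, which closes the RNA into a ring. The junction, called a back-splice junction, is absent from linear mRNA, and the reads that cross it are what was counted. With no free ends, circRNAs escape the enzymes that degrade RNA from its ends and are usually more stable than the mRNA of the same gene. During the days compared here, adipocytes that have committed to the lineage fill with lipid and take on the metabolism of mature fat cells.

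The D4 libraries held 43069 and 41658 back-splice reads and the D8 libraries 45371 and 50672, so that 1 read was worth between 19.7 and 24.0 circRNA reads per 1000000 (circCPM). The table holds no value of 1, how its 0 values arose is not given in the sources used here, and a 0 can therefore hide 1 or more reads. For that reason such values are called listed at 0 here, and no fold change is given against a day whose libraries are both at 0. The spread was wide in places. On D4, 29 circRNAs were listed at 0 in 1 library with 15 or more reads in the other, and on D8 there were 64, of which 24 and 51 were among those tested. Because this is a bulk measurement, fewer cells of a type and less RNA per cell cannot be told apart.

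The defining markers of each cell type were followed through the circRNAs of their genes. Of 28 adipocyte markers, 9 had a circRNA in the table, and these summed to 1532 and 2328 circCPM on D4 and to 6127 and 6927 on D8. Preadipocyte and fibroblast markers were the reverse, with summed levels of 3924 and 4153 circCPM on D4 and 2138 and 2210 on D8, for 8 of 21 genes. Both sets were therefore apart on the 2 days, although the labels call the cells preadipocytes on each. The markers of other cell types gave few circRNAs. Smooth muscle and pericyte markers had 2 of 14 genes in the table and summed to 69.7 and 0 circCPM on D4 and 485 and 276 on D8. Endothelial markers (2 of 14 genes) gave 488 and 240 against 286 and 414 circCPM, and macrophage and leukocyte markers (4 of 15 genes) 882 and 720 against 1322 and 1006. Their part in the results below was not tested.

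Between D4 and D8 a single circRNA passed the test, a circle of Pde4d, which fell about 15-fold. It was 1 of 1407 tested, or 0.0711%, by the quasi-likelihood test of edgeR with a Benjamini-Hochberg adjusted p below 0.05. DESeq2 called 3 circRNAs, or 0.0819% of 3662, all lower on D8, which came from Pde4d, Pdlim5 and Zfx. Before adjustment 93 circRNAs were higher on D8 (6.61% of those tested) and 79 were lower (5.61%) at a p under 0.05. Which side was larger turned with the library left out, but those fits are not comparable with this one. With 1 library of a day left, the filter on low counts is looser and another set of circRNAs is tested. The circCPM values of the 2 days did not overlap for 378 circRNAs that were higher on D8 (26.9%) and for 334 that were lower (23.7%).

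Most fitted changes were small, which does not by itself show that these circRNAs were level. Of the 1336 tested with reads on both days, 924 (69.2%) had a fitted change of less than 2-fold, and the median log2 fold change over all tested with reads on either day was -0.02. The standard error of the log2 fold change had a median of 0.75, and it was 0.28 for the 56 circRNAs whose mean reached 100 reads. Of these 56 well-covered circRNAs, 51 lay within 2-fold. The power of the edgeR test was read from simulated data, in which 200 circRNAs were given a difference. It recovered 4 when the difference was 4-fold, 159 when it was 8-fold and 192 when it was 16-fold. The absence of a call therefore does not show that a circRNA was unchanged.

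**Figure D1:**
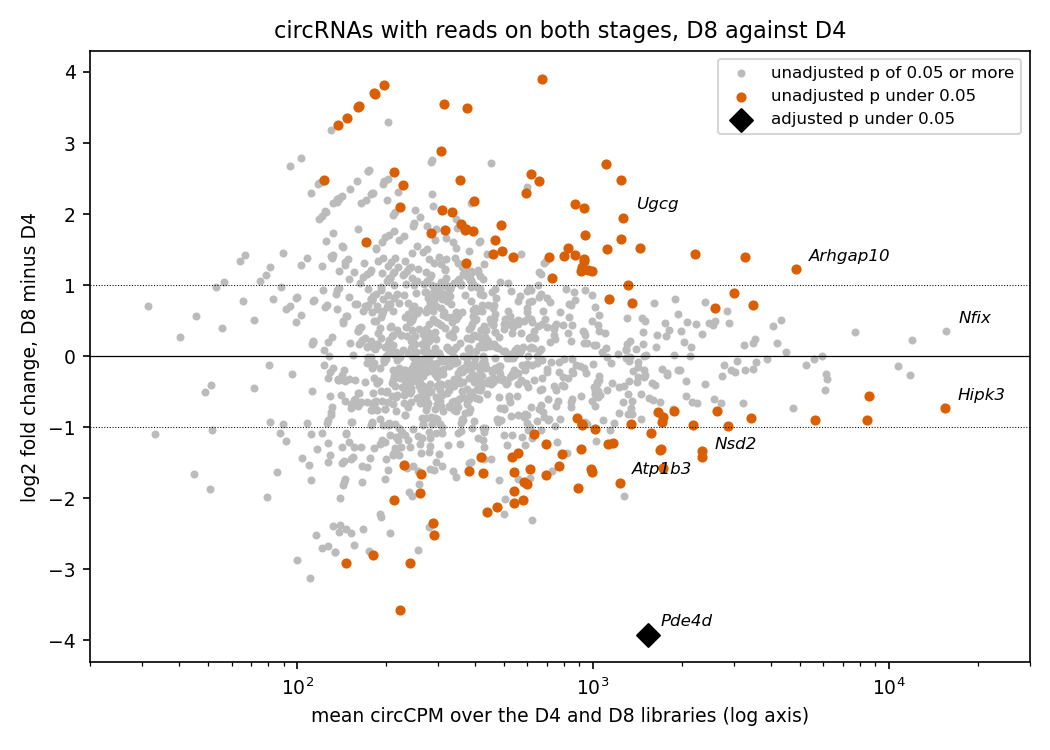
The log2 fold change of D8 against D4 (vertical axis) is plotted against the mean circCPM of the D4 and D8 libraries (horizontal log axis) for the 1336 circRNAs tested with reads on both days. Orange points have an unadjusted p under 0.05, dotted lines mark a 2-fold change, and the black diamond is the Pde4d circle at -3.92, the 1 circRNA past the adjusted threshold.

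The Pde4d circle, circ_0004451, lies at chr13:110724076-110729569 (mm9, plus strand). It joins exons 9 to 13 of a 17-exon transcript into a ring of 631 bases, all coding. Pde4d encodes a phosphodiesterase that degrades cAMP, the second messenger that IBMX preserves. The second circRNA of the gene, circ_0004450, lies upstream at chr13:110530595-110562888, where it joins exons 4 to 7 into 353 bases. Their back-splice junctions are shown because this gene carries the change that passed the test. In all junctions printed here, the lower-case letters end the last exon of the circle and the capitals begin its first exon, read 5′ to 3′ on the strand of the gene.
Pde4d circ_0004451: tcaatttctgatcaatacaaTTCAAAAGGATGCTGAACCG
Pde4d circ_0004450: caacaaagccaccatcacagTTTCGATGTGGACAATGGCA

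Reads across the circ_0004451 junction numbered 119 and 126 on D4 and 9 in each D8 library. The D0 libraries held 7 and 13. D4 and D8 were thus far apart, at 2894 ± 185 and 188 ± 14.7 circCPM (SD, n = 2 each). The log2 fold change was -3.92 with a standard error of 0.41, a 15.1-fold fall, at an adjusted p of 0.0210 in edgeR. This circle passed the filter on low counts through D4, the day on which it was high. Without that filter its adjusted p was 0.0122 in edgeR. For circ_0004450 the counts were 29 and 24 on D4 and 17 and 19 on D8, a log2 fold change of -0.73 ± 0.50 (SE) that did not pass the test (adjusted p = 0.619 in edgeR). The larger circle of D4 was thus the smaller one on D8. Circ_0004451 made up 80.4% and 84.0% of the Pde4d back-splice reads on D4 and 34.6% and 32.1% on D8. The call was lost when either D4 library was left out, with adjusted p-values of 0.105 without D4 replicate 1 and 0.219 without D4 replicate 2 in edgeR. The fold kept its size in both cases, with log2 values of -3.93 and -3.87.

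Another 11 circRNAs made up the list of 12 with the strongest evidence for a lower level on D8, none of which passed the adjusted threshold in edgeR. Their adjusted p-values lay between 0.147 and 0.231. The list was drawn from circRNAs whose D4 and D8 values did not overlap, so that this holds for all by choice. The first pair were listed at 0 in both D8 libraries. The junctions of these 2 circles and of the next in line, of Atp1b3, are shown as the most separated after Pde4d; that of Zfx is given with 15 bases on each side.
Pdlim5 circle: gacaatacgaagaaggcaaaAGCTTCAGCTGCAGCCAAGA
Zfx circ_0016408: accttatgatctcttGTGCGTATAACTGTG
Atp1b3 circ_0016012: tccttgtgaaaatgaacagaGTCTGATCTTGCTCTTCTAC

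The Pdlim5 circle at chr3:141966907-141977412 (mm9, minus strand) comes from a gene for a PDZ and LIM domain protein that binds actin filaments. It had 31 and 37 reads on D4 and was listed at 0 in both D8 libraries, with an unadjusted p of 0.000289 in edgeR and an adjusted p of 0.00835 in DESeq2. Circ_0016408 of Zfx, an X-linked gene for a zinc-finger transcription factor, lies at chrX:91343622-91359602 (minus strand) and takes in untranslated sequence of the mRNA. It had 43 and 36 reads on D4 and was listed at 0 in both D8 libraries, and also in both D0 libraries, with an adjusted p of 0.0266 in DESeq2. It therefore passed the filter on low counts through D4 alone, the day on which it was high. Both circles were thus present in each D4 library and absent from the list in each D8 library. Circ_0016012 of Atp1b3, a beta subunit of the sodium-potassium pump, joins exons 2 to 4 at chr9:96240621-96246312 (minus strand). Its counts were 91 and 71 on D4 and 26 and 27 on D8, a log2 fold change of -1.78 ± 0.33 (SE, unadjusted p = 0.000692 in edgeR).

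The other 8 were lower by smaller factors than the Atp1b3 circle. Circ_0001335 of Nsd2, which encodes a histone H3 lysine 36 methyltransferase, had 164 and 126 reads on D4 against 60 and 62 on D8 (log2 -1.42 ± 0.30, SE). Circ_0007672 of Glis3, a Krüppel-like zinc-finger factor, had 96 and 108 against 40 and 53. Circ_0011724 of Ptbp3, a splicing repressor of the polypyrimidine tract-binding family, was the most abundant of the group, with 300 and 323 reads on D4 against 157 and 223 on D8, or 1.87-fold lower.

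Circ_0001662 of Mcph1, which encodes a protein of chromosome condensation and DNA damage signalling, had 71 and 55 reads on D4 and 22 and 25 on D8. Circ_0007399 of Marchf3, a membrane-bound ubiquitin ligase, had 124 and 160 against 56 and 72. Circ_0001491 of Eefsec, the elongation factor that inserts selenocysteine, had 109 and 111 against 50 and 32. The last pair of the list were circ_0002263 of Ascc3, a helicase subunit (142 and 179 against 82 and 103), and the Col5a1 circle, from a gene for a chain of type V collagen (54 and 56 against 24 and 26). Across these 8 circRNAs the fitted D4 level was between 1.87 and 3.02 times that of D8.

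The 12 circRNAs with the strongest evidence for a higher level on D8 included circles of GTPase regulators and of genes of lipid and glycogen metabolism. None passed the adjusted threshold, with adjusted p-values between 0.147 and 0.231 in edgeR. They too were drawn from circRNAs whose D4 and D8 values did not overlap. Of the 12, 3 came from Arhgap10 and were joined by 1 from Arhgap21, both of which encode GTPase-activating proteins, which switch off small GTPases of the actin cytoskeleton. Junctions are shown for the Arhgap10 circle, which had the smallest p among circRNAs higher on D8, and for 3 circles of metabolic genes, Ugcg, Gbe1 and Mlxipl.
Arhgap10 circ_0001692: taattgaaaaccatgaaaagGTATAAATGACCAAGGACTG
Ugcg circle: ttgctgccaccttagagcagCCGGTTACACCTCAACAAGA
Gbe1 circ_0006376: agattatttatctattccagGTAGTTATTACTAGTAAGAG
Mlxipl circle: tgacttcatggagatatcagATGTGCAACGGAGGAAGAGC

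Circ_0001692 of Arhgap10, at chr8:79868539-79889059 (mm9, minus strand), had 127 and 120 reads on D4 and 301 and 353 on D8. After scaling this was 2915 ± 48.2 against 6800 ± 235 circCPM (SD, n = 2 each). The log2 fold change was 1.22 ± 0.20 (SE), with an unadjusted p of 0.000349 and an adjusted p of 0.147 in edgeR. The Arhgap21 circle, at chr2:20776981-20781663 (minus strand), had 8 and 7 reads against 37 and 66, or 5.90-fold more on D8.

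Among the metabolic genes, Ugcg encodes glucosylceramide synthase, the first enzyme of glycosphingolipid synthesis. Its circle of exons 2 to 5 (chr4:59220633-59226849, plus strand) had 21 and 23 reads on D4 and 85 and 109 on D8, with a log2 fold change of 1.95 ± 0.36 (SE). Gbe1 is the branching enzyme of glycogen synthesis, and circ_0006376 (chr16:70433790-70441564, plus strand, exons 4 to 7) had 48 and 53 reads against 168 and 139 (log2 1.44 ± 0.32, SE). The Mlxipl circle (chr5:135597376-135599887, plus strand, exons 4 to 8) comes from the gene for ChREBP, the glucose-responsive activator of lipogenic genes. It had 10 and 7 reads on D4 and 43 and 65 on D8, and was listed at 0 in both D0 libraries, so that it was tested through D8 alone. In the fit the D8 level of these 3 was 2.71 to 5.50 times that of D4.

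The remaining 7 comprised 2 more circles of Arhgap10 and 5 of genes of varied function. The Arhgap10 circle of exons 9 to 13, at chr8:79906624-79935027 (minus strand), had 85 and 67 reads on D4 against 201 and 255 on D8. Circ_0000664 of Marf1, an endoribonuclease gene, had 15 reads in each D4 library against 66 and 80 on D8, or 4.26-fold more. Circ_0000229 of Nudcd3, a chaperone partner of dynein, had 5 and 4 against 27 and 31. Circ_0002433 of Ube2g2, a ubiquitin-conjugating enzyme of the endoplasmic reticulum, had 15 and 12 against 43 and 96, so that the D8 libraries differed among themselves by about 2-fold. The other 3 were listed at 0 in both D4 libraries. Circ_0014145 of Wtip, a LIM protein of cell junctions, had 28 and 12 reads on D8, the day through which it passed the filter on low counts. The circle of Nox4, an NADPH oxidase that makes hydrogen peroxide, had 18 and 32 reads on D8 and none listed on D0, so that it passed the filter on low counts through D8 alone. The third such circle, of Arhgap10 exons 12 to 16, had 15 and 43.

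**Figure D2:**
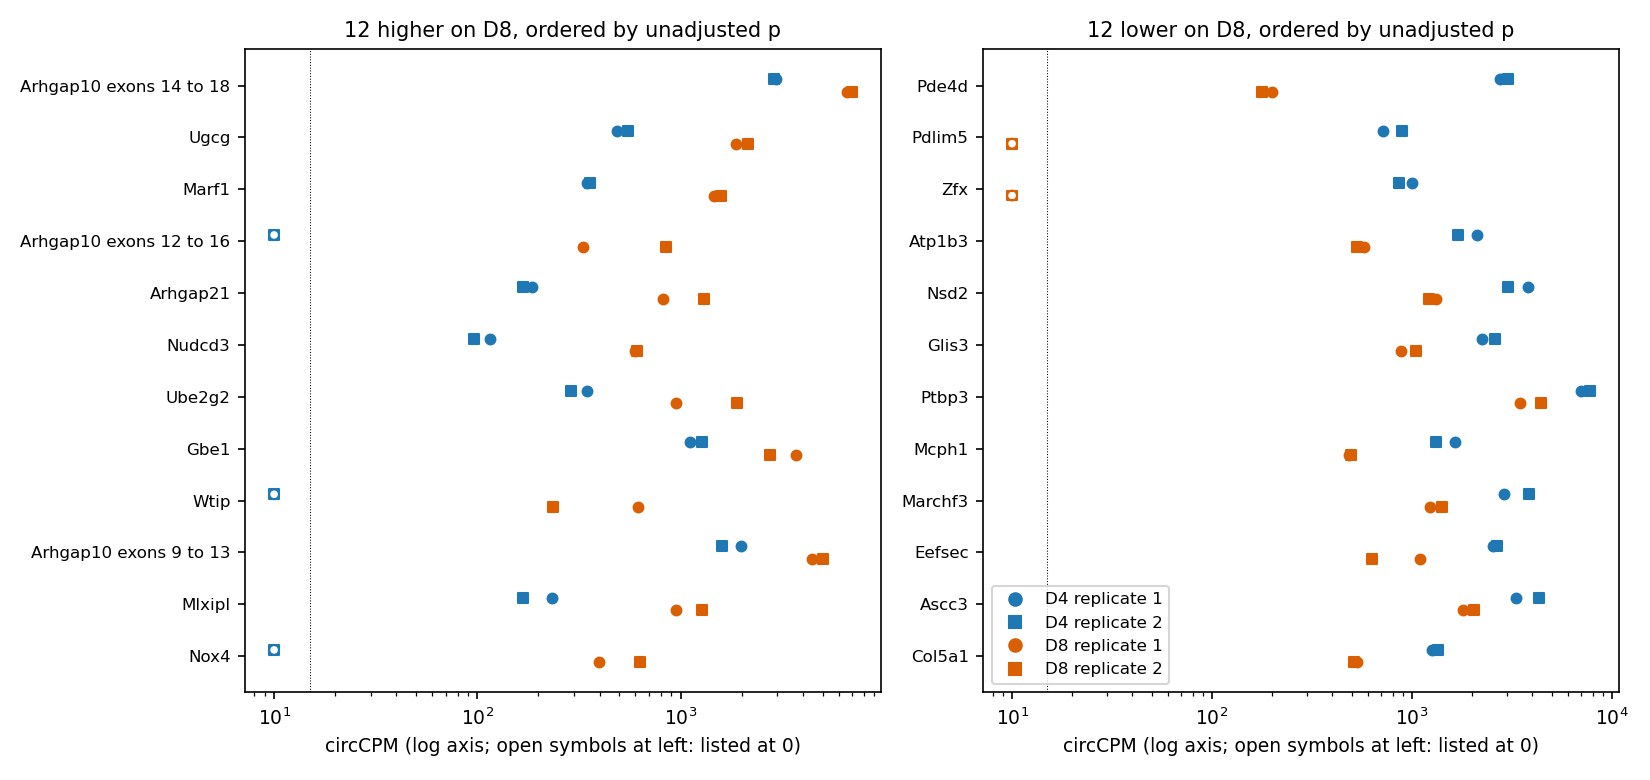
Each row is a circRNA and each symbol a library, placed by its circCPM on a log axis, with D4 in blue, D8 in orange, replicate 1 as circles and replicate 2 as squares. The left panel holds the 12 higher and the right panel the 12 lower on D8 with the smallest p, open symbols left of the dotted line are values listed at 0, and all rows were chosen among circRNAs whose days do not overlap.

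Arhgap10 gave 20 circRNAs, and 13 of them were tested. Of these 13, 6 were higher on D8 at an unadjusted p under 0.05, and in 12 of 13 both D8 libraries lay above both D4 libraries, where all tested circRNAs gave 6.61% and 26.9%. These circles share exons and splice sites of 1 gene and are not independent of each other. Summed over the gene, Arhgap10 had 407 and 398 reads on D4 and 923 and 1121 on D8, a log2 fold change of 1.09 ± 0.17 (SE) with an adjusted p of 0.0557 in edgeR. DESeq2 called it, at an adjusted p of 5.80e-07, and the alternatives within edgeR gave adjusted p-values between 0.00528 and 0.266. The main circles had similar shares on the 2 days. Circ_0001692 made up 31.2% and 30.2% of the gene's reads on D4 and 32.6% and 31.5% on D8, and the circle of exons 9 to 13 20.9% and 16.8% against 21.8% and 22.7%. Circ_0014982 (exons 16 to 18) had 18.4% and 21.4% on D4 and 14.0% and 10.5% on D8, for which the test against the rest of the gene gave an unadjusted p of 0.153 in edgeR. The smallest p-values belonged to minor circles that were listed at 0 in both D4 libraries and so entered the test through the days on which they had reads, which makes these values a description. That of exons 12 to 16 had 15 and 43 reads on D8 and an unadjusted p of 3.97e-05 in the same test, and circ_0014985 (exons 14 to 15) had 12 and 10 reads and an unadjusted p of 0.00273.

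Some of these circles share splice sites. Circ_0001692 and circ_0014985 open with the same exon, as their capitals show, and circ_0001692 and circ_0014982 close with the same exon, as their lower-case letters show. The 3 junctions are placed together for this reason.
Arhgap10 circ_0001692, exons 14 to 18: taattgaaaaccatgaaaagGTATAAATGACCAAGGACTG
Arhgap10 circ_0014985, exons 14 to 15: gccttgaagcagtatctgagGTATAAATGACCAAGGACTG
Arhgap10 circ_0014982, exons 16 to 18: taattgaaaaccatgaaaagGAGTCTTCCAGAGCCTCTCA

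**Figure D3:**
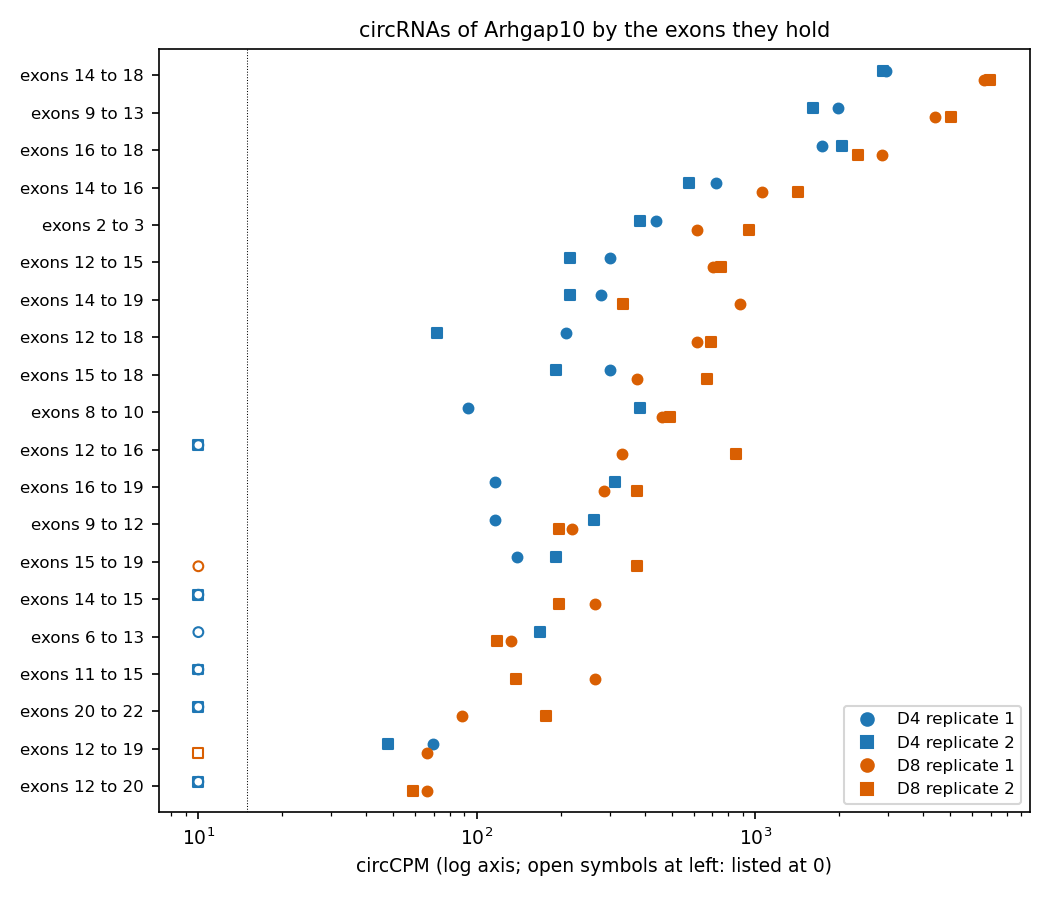
Rows are the 20 circRNAs of Arhgap10, named by their first and last exon and ordered by mean level, with circCPM of each D4 (blue) and D8 (orange) library on a log axis and open symbols for values listed at 0. The circle of exons 14 to 18 stands highest in all 4 libraries, at 2949 and 2881 circCPM on D4 and 6634 and 6966 on D8.

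Summing the circRNAs of each parental gene raised the reads behind each value. Of 1108 genes tested on these sums, again a single one passed (0.0903%), Pde4d, with 148 and 150 reads on D4 and 26 and 28 on D8 (log2 -2.70 ± 0.32, SE, adjusted p = 0.0113 in edgeR). At an unadjusted p under 0.05, 98 genes were higher on D8 (8.84%) and 94 were lower (8.48%). DESeq2 called 22 genes on the sums, or 1.9% of the 1157 to which it gave an adjusted p, 9 higher and 13 lower. The count on sums depended on the settings. It was 0 without D4 replicate 2, D8 replicate 1 or D8 replicate 2, and 30 when genes with a mean under 20 reads were left out. Without D4 replicate 1 the 1 call was Tmbim6, so that the Pde4d sum lost its call whichever D4 or D8 library was left out.

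The 5 genes with the smallest p for a higher sum were Arhgap10, Zbtb38, Me1, Zfp532 and Arhgap21. Me1 encodes cytosolic malic enzyme, a source of NADPH for fatty acid synthesis. Its 5 circRNAs held 0 and 2 reads on D4 and 57 and 52 on D8, and 0 in both D0 libraries, so that it was tested through D8 alone. Zbtb38, a methyl-CpG-binding zinc-finger gene, was listed at 0 in both D4 libraries and had 26 and 16 reads on D8, and Zfp532, another zinc-finger gene, had 4 and 0 against 33 and 32. In contrast to Me1, these 2 genes had circRNA reads on D0, with 32 in each library for Zbtb38 and 53 and 48 for Zfp532.

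The 5 genes with the smallest p for a lower sum were Pde4d, Zfx, Atp1b3, Nfia and Rad18. Nfia encodes nuclear factor I A, a transcription factor of the adipocyte lineage, and its 8 circRNAs held 167 and 120 reads on D4 and 19 and 53 on D8. Rad18, a ubiquitin ligase of DNA damage tolerance, had 8 and 16 reads on D4 and was listed at 0 in both D8 libraries. Bmper, a secreted regulator of bone morphogenetic proteins and a call of DESeq2 and of some alternatives within edgeR, had 163 and 112 reads against 20 and 49 and none listed on D0. Nfia had 4 and 2 reads on D0.

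**Figure D4:**
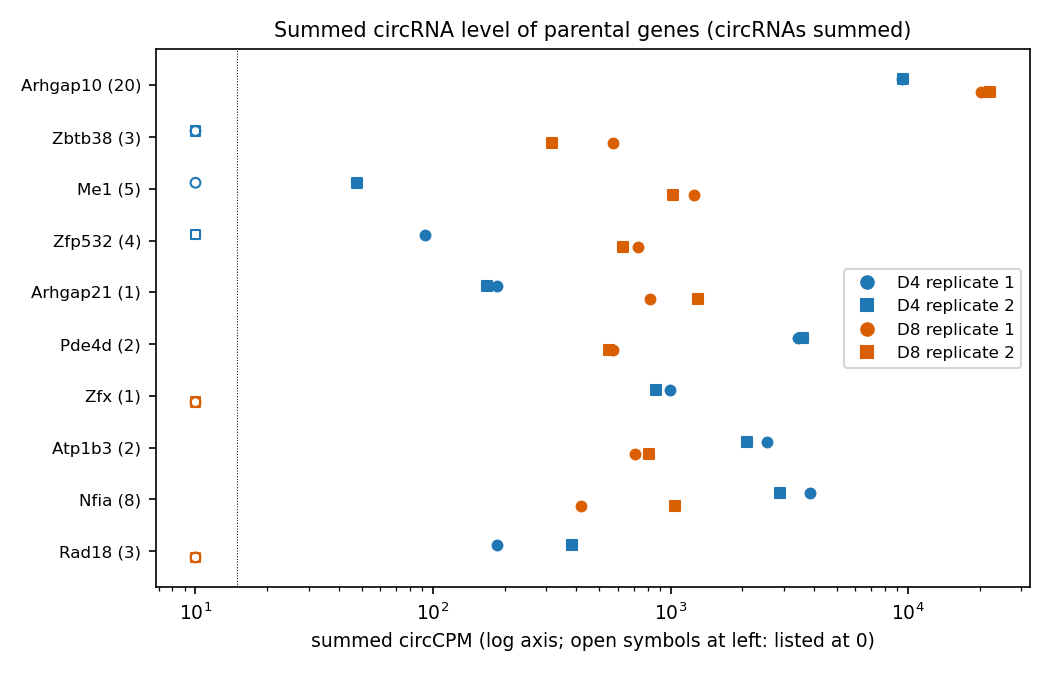
Rows are the 10 parental genes with the smallest p on the sums, 5 higher and 5 lower on D8, with the number of circRNAs summed in brackets and the summed circCPM of each library on a log axis. D4 is blue, D8 is orange, open symbols are sums listed at 0, and the 2 days do not overlap for any of the 10.

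It was then asked whether the circles of one gene move apart. Of 264 genes with 2 or more tested circRNAs, 0 passed (0.0%) at an adjusted p under 0.05 in edgeR's test of use within genes, and the Simes form of the test called 0 as well. Before adjustment 23 genes (8.71%) had a p under 0.05. The 5 with the smallest p were Pdlim5, Pde4d, Nbas, Arhgap10 and Auh, with adjusted p-values from 0.0826 to 0.220. Without either D0 library the filter was looser and 3 circRNAs of Pdlim5 entered the test, where the main fit had 2. Those fits cannot be set against the main one.

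In Pdlim5 the circle of chr3:141966907-141977412 held 77.5% and 62.7% of the gene's reads on D4 and was listed at 0 on D8. The circle of chr3:141922094-141940965 had 9 and 22 reads on D4 and 12 and 15 on D8. In Nbas, a gene of transport between Golgi and endoplasmic reticulum, circ_0000360 had 12 reads in each D4 library and was listed at 0 on D8. Circ_0003822 of the same gene had 88 and 77 against 70 and 85. With 5 and 8 reads on D0, circ_0000360 passed the filter on low counts through D4, the day on which it was high. The place of Nbas among the 5 genes rests on circ_0000360 and is a description. In Auh, a gene for an enzyme of leucine breakdown, circ_0004646 (exons 2 to 6) had 11 and 14 reads on D4 and 8 and 14 on D8. Circ_0004645, which closes at the same exon but opens at exon 4, was listed at 0 on D4 and D0 and had 15 and 16 reads on D8. It thus passed the filter through D8 alone, and the place of Auh among the 5 genes rests on it. The shared exon end and the differing openings can be read from the junctions.
Auh circ_0004646: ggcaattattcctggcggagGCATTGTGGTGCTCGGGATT
Auh circ_0004645: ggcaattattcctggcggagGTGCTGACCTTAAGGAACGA

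Gene groups were then compared with the background of 6.61% of tested circRNAs higher and 5.61% lower. Counts given below without 1 library come from the looser filter described above and are a description. Genes of the actin cytoskeleton and its GTPase regulators had 62 circRNAs tested, of which 15 (24.2%) were higher and 1 was lower on D8 at an unadjusted p under 0.05, with a median log2 fold change of 0.63 against -0.02 for all. Of the 15, 7 were listed at 0 in both D4 libraries and so passed the filter on low counts through the other days. Arhgap10 alone supplied 6 of the 15. The other 37 genes of the group had 9 of 49 circRNAs higher (18.4%), from 9 genes, and a median of -0.02. Among these 9 were Arhgef10l, a guanine nucleotide exchange factor (0 and 0 reads on D4, 16 and 20 on D8), Tns1, an adaptor of focal adhesions (0 and 0 against 10 and 15), and its paralogue Tns3 (20 and 29 against 68 and 60). Of the 9, 5 were listed at 0 in both D4 libraries. The circles of Arhgef10l, Arhgef12 and Arhgef28 passed the filter on low counts through D8, the day on which they were high. The shares of higher circRNAs in this group are therefore a description.

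Genes of the cell cycle and DNA repair stood lower. Of 37 circRNAs tested, 0 were higher and 5 (13.5%) were lower on D8, with a median log2 fold change of -0.65. The lower count was 3 without D4 replicate 2 and at most 7 without any other library. On the gene sums, 10 of 26 genes (38.5%) were lower and 0 were higher, against the 8.48% and 8.84% of all genes. None passed the adjusted threshold in edgeR, while DESeq2 called the sums of Rad18 (adjusted p = 0.0212) and Bub1b (adjusted p = 0.0298). Without each library in turn, between 5 and 9 genes were lower, with 5 without D8 replicate 1 and 6 without D4 replicate 2 or D8 replicate 2. The sums of Bub1b, a kinase of the spindle checkpoint, were 50 and 54 reads on D4 and 3 and 20 on D8. Fancl, the ubiquitin ligase of the Fanconi anaemia pathway, had 117 and 136 against 62 and 80, and Knl1, a scaffold of the kinetochore, 60 and 57 against 14 and 39. Rad52, a recombination gene, had 35 and 47 against 86 and 98, with an unadjusted p of 0.132.

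Genes of lipid metabolism had 28 circRNAs tested, 3 higher and 1 lower, and a median log2 fold change of 0.48. The higher count was 1 without D8 replicate 1, 5 without D0 replicate 2 and 6 without D4 replicate 2. On the sums 5 of 23 genes (21.7%) were higher and 1 was lower, again with none past the adjusted threshold in edgeR, while DESeq2 called Me1 (adjusted p = 0.0212). These 5 were Me1, Mlxipl, Pnpla3, Cd36 and Acss3. All but Acss3 were listed at 0 on D0 and low or at 0 on D4, and so passed the filter on low counts through D8 alone, so that the share of higher genes is a description. Cd36, the fatty acid transporter of fat cells, was listed at 0 in both D4 libraries and had 20 and 17 reads on D8. Pnpla3, a lipase and acyltransferase of lipid droplets, had 7 and 0 reads against 82 and 37, and Acss3, a mitochondrial synthetase of propionyl-CoA, 117 and 99 against 199 and 203. The lower one was Cers6, a ceramide synthase, with 45 and 62 against 22 and 41.

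The adipocyte markers with circRNAs were few. All 6 genes tested on sums had both D8 libraries above both D4 libraries, against 31.3% of all genes, and 4 of the 6 were higher at an unadjusted p under 0.05, against 8.84% of all. Besides Mlxipl and Cd36 these included Ghr, the growth hormone receptor (2 and 35 reads on D4, 77 and 103 on D8). Since Mlxipl and Cd36 were tested through D8 alone, these counts are also a description. Pparg, the master regulator of adipogenesis, had 13 and 18 reads against 24 and 29, with an unadjusted p of 0.416. Preadipocyte and fibroblast markers had 2 of 7 genes lower, against 8.48% of all, and 0 higher. Only 1 was lower without D0 replicate 2, D4 replicate 1, D4 replicate 2 or D8 replicate 2. Gli3, a transcription factor of Hedgehog signalling, had 29 and 36 reads on D4 against 0 and 9 on D8, and Bnc2, a zinc-finger gene of fibroblasts, 35 and 32 against 22 and 8.

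Targets of the induction cocktail were looked at in 2 short groups. In cAMP signalling, 11 circRNAs were tested, with the Pde4d circle as the 1 call and 0 higher. For 3 other phosphodiesterase genes both D8 libraries lay above both D4 libraries, which is 3 of the 10 genes tested on sums and close to the 31.3% of all genes. Pde8a had 12 and 5 reads on D4 and 23 and 37 on D8 (unadjusted p = 0.0498 on the sums), and Pde3a and Pde5a had 6 and 8 against 18 and 20, and 12 and 7 against 23 and 19, neither at an unadjusted p under 0.05. Pde4a, with 7 and 17 against 14 and 34, overlapped between days. Rapgef6, an exchange factor for Rap GTPases, was lower on the sums at an unadjusted p of 0.0389 in edgeR, with 56 and 86 reads against 35 and 57. Among 9 circRNAs of glucocorticoid-responsive genes, 1 was higher and 1 was lower before adjustment. The higher came from Fkbp5, a co-chaperone of the glucocorticoid receptor (30 and 21 reads on D4, 93 and 88 on D8), and the lower from Glcci1, a glucocorticoid-induced transcript (35 and 43 against 16 and 13). The dexamethasone was in the D4 medium and not in that of D8.

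In the other groups few circRNAs had an unadjusted p under 0.05. These groups were insulin and mTOR signalling (2 higher and 0 lower of 18), glycogen and glucose metabolism (2 and 1 of 13), branched-chain amino acid catabolism (2 and 1 of 15), adipogenic transcription factors (3 and 2 of 37), extracellular matrix (3 and 2 of 33), chromatin regulators (4 and 1 of 67) and calcium handling (1 and 1 of 16). Such counts moved with single libraries, and for chromatin regulators the lower count was 6 without D8 replicate 1 and 9 without D8 replicate 2. All 3 higher circles of the extracellular matrix group were listed at 0 in both D4 libraries. The higher circles of Lama2 (extracellular matrix), Auh (amino acid catabolism) and Ncoa3 (transcription factors) passed the filter on low counts through D8, the day on which they were high. The counts of these groups are therefore a description. Of the insulin group, circ_0014773 of Insr, the insulin receptor, had 102 and 77 reads on D4 and 198 and 175 on D8. TGF-beta and BMP signalling had 1 higher and 3 lower of 27, and all 3 lower circles belonged to Bmper. Of these, 2 passed the filter on low counts through D4 alone, the day on which they were high. Here the lower count was 0 without D4 replicate 1 or D8 replicate 1, 5 without D0 replicate 1 and 7 without D0 replicate 2. In WNT, Hedgehog and Hippo signalling the numbers were 5 and 3 of 31, with 1 higher without D4 replicate 2 and 3 without either D8 library. The 5 higher included circ_0001676 of Wwc2, an upstream activator of the Hippo kinases (25 and 22 against 62 and 60), and circ_0001745 of Amotl1, which binds YAP (38 and 36 against 69 and 100). Another of the 5, the circle of Tnks, passed the filter on low counts through D8 alone.

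**Figure D5:**
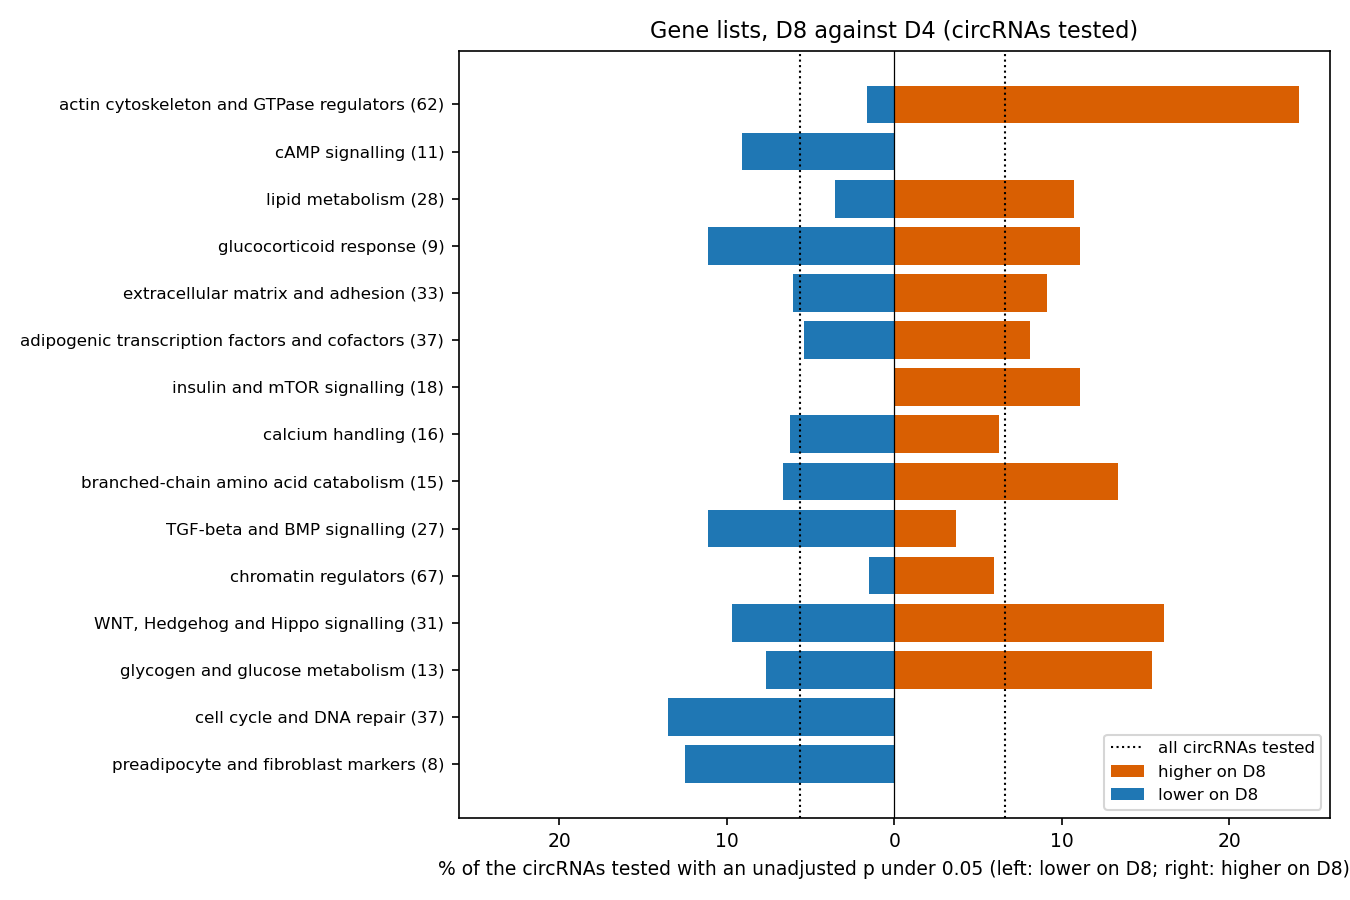
Bars give, for each gene group with 8 or more circRNAs tested, the percentage of tested circRNAs that were higher (right, orange) or lower (left, blue) on D8 at an unadjusted p under 0.05, with the number tested in brackets and the groups ordered by median log2 fold change. Dotted lines mark all tested circRNAs (6.61% and 5.61%), and the actin cytoskeleton group reaches 24.2% on the right.

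Detection followed the rule of 2 or more reads in both libraries of a day. By it, 2148 circRNAs were detected on D4 and 2362 on D8, with 1424 on both days, 724 on D4 alone and 938 on D8 alone. With a library left out, the rule asks for 2 reads only in the remaining library of that day. Detection on that day then rises by construction, so these counts do not show how stable the order of the last pair is. That pair became 831 and 744 without D4 replicate 1 and 872 and 616 without D4 replicate 2. It was 511 and 1040 without D8 replicate 1 and 469 and 1091 without D8 replicate 2. The shared circRNAs carried 82.6% of D4 reads and 80.1% of D8 reads. Those detected on 1 day were shallow, with a median of 15 (D4 alone) and 14 (D8 alone) reads over the 4 libraries, against 51 for the shared. Most were not missing from the other day, since only 256 of 724 and 422 of 938 were listed at 0 in both of its libraries. When 2 reads in either library sufficed, 379 were left on D4 alone and 545 on D8 alone. The parental gene had another circRNA detected on the other day for 59.0% of the circRNAs of D4 alone and 47.7% of those of D8 alone.

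The circRNAs with the most reads on one day and listed at 0 on the other include several not yet described. On D8, the circle of Map2k5, a MAP kinase kinase (21 and 19 reads), and that of Itgbl1, an integrin beta-like secreted protein (28 and 11), were listed at 0 on D4. On D4, circ_0001630 of Hirip3, a histone-binding protein (12 and 23), and the circle of Sec22b, a vesicle fusion protein of the endoplasmic reticulum (9 and 19), were listed at 0 on D8. These values of 0 carry the same limit as the others in the table.

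The form of the circRNAs that were higher or lower before adjustment is given as a description, with no test. A day listed at 0 was held by 29 of the 93 higher and 19 of the 79 lower, against 71 of all 1407, so that the sets also differ from all tested in this. Their genomic span had a median of 3817 bases for the 93 higher and 10203 bases for the 79 lower, against 7491 for all tested. The spliced length had medians of 383, 474 and 438 bases in the same order. Circles of a single exon made up 11.5% of the higher and 4.0% of the lower, against 7.16% of all. Of the higher, 37.6% were absent from circBase, a public list of circRNAs, against 24.1% of the lower and 19.8% of all.

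The 5 most abundant circRNAs over D4 and D8 came from Hipk3, Nfix, Med13l, Pvt1 and Mettl9, and none passed the test of circRNAs in edgeR or DESeq2. On the gene sums DESeq2 called Hipk3, whose sum is 1 circle (adjusted p = 0.0212). The single-exon circle of Hipk3, a kinase gene, had 865 and 782 reads on D4 and 608 and 497 on D8, with a log2 fold change of -0.74 ± 0.21 (SE, adjusted p = 0.234 in edgeR). Nfix, a transcription factor of the nuclear factor I family, had 645 and 518 reads against 881 and 786, while Med13l, a subunit of the Mediator kinase module, had 513 and 583 against 515 and 510. The long noncoding RNA Pvt1 gave 502 and 438 against 516 and 740, and Mettl9, a histidine methyltransferase gene, 484 and 473 against 475 and 510. The last 4 differed by 1.10- to 1.28-fold in the fit.

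The study designed divergent primers, which point outward on a linear transcript, for 12 of the circRNAs. Of these, circ_0006376 of Gbe1 and circ_0007399 of Marchf3 were among the 24 with the strongest evidence above. For Gbe1 the primers lie at both ends of the 563-base ring, so that their product of 158 bases crosses the junction.
Gbe1 forward primer: ccgagggacccatgatcttt
Gbe1 reverse primer: ggagcccagtgtatccaatc

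The other primer targets not yet named varied in how well the replicates stood together. Circ_0001473 of Mpp6, a membrane scaffold gene, had 105 and 100 reads on D4 and 30 and 65 on D8, and circ_0000903 of Setbp1, a gene for a SET-binding protein, 108 and 114 against 191 and 224. Circ_0001698 of Zfp827, a zinc-finger gene, had 9 and 8 against 19 and 16. Circ_0001447 of Cped1 (215 and 252 against 281 and 195) and circ_0001699 of Smad1, which carries BMP signals (38 and 17 against 24 and 43), overlapped between days. Circ_0000529 of Samd4, a translational repressor gene, had 33 reads in each D4 library and 82 and 0 in the D8 libraries, so that its direction rested on which D8 library was read.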

How the data were processed

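Libraries of RNA depleted of ribosomal and linear RNA were made from D0, D4 and D8 cells, 2 for each day. The authors trimmed reads with fastp 0.20.1, mapped them with BWA-MEM 0.7.17 onto mm9, and predicted circRNAs by CIRI2. The submitters' processing notes also name FastQC 0.11.9 and HISAT2 2.2.0. The deposited values are raw counts of back-splice reads per circRNA and library. A circRNA was retained by the authors where both libraries of some day held at least 2 reads. CIRI2 counts have no molecular identifiers, so reads are not independent molecules. The groups were taken from the sample titles. Total counts per library ranged from 41658 to 50672 on D4 and D8, and from 30110 to 32310 on D0.

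Counts were fitted in edgeR 4.0.16 (R 4.3.3) with TMM scaling, filterByExpr (minimum count 10, minimum total 15) and quasi-likelihood F-tests of D8 minus D4 in a model of stage over all 6 libraries, with Benjamini-Hochberg adjustment at 0.05. The same test was run on sums per parental gene. Use within genes was tested with diffSpliceDGE on the quasi-likelihood fit, since its F-test needs that fit and not the planned glmFit. Scripts were tested on simulated data. The alternatives were DESeq2 1.42.0 (Wald test), other scalings and filters, a fit of D4 and D8 only, a replicate term and each library left out. A robust fit and a fit without circRNAs with a 0 in 1 library and 15 or more reads in the other were chosen after seeing the data. Parental genes, exons and junctions came from GENCODE vM1 and the mm9 genome, by strand. Names matched RefSeq symbols for 2009 of 2017 genes. circCPM is reads per 1000000 by column total.

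Named circRNAs were the calls of edgeR or DESeq2, the 12 higher and 12 lower with the smallest p (mean of 10 or more reads, days not overlapping), the 5 most abundant, the primer targets, and up to 4 of each gene list plus those with p under 0.05. Also named were the 5 parental genes with the smallest p in each direction on sums and the 5 on use. Genes of the lists named from sums, and circRNAs listed at 0 on 1 day, were chosen after their values were seen. The members and lists were chosen with earlier results of these data known. The values of 1 adipocyte marker are not reported here.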

Additional observations from a re-analysis of the deposited data

How the results depend on the processing

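With 2 libraries a day and 3 residual degrees of freedom, the number of calls varied between the settings. When 1 library is left out, the filter on low counts is looser and the set tested differs from that of the main fit. For circRNAs, where 1 was called, DESeq2 called 3, a filter on a mean of 20 reads 2, and the test without circRNAs with an isolated 0 called 24 of 1290. Leaving out 1 library gave 0 to 15 calls, with 0 without D4 replicate 2, 4 without D0 replicate 1, 5 without D8 replicate 1 and 15 without D8 replicate 2. The 1 call without D4 replicate 1 came from Tmbim6, not Pde4d. For gene sums, where 1 was called, DESeq2 called 22, DESeq2's size factors within edgeR 2, column totals 2, a mean of 20 reads 30, a fit of D4 and D8 only 13, the robust fit 10 and the test without isolated 0 values 55. Leaving out 1 library gave 0 to 4. For use within genes, where 0 were called, leaving out 1 library gave 0 to 1. The causes were not tested. Detection on both days was 2540 with 2 reads in either library and 947 with 5 in both, against 1424, and 1618 to 1746 without 1 library. For D4 alone it was 379 and 420 against 724, and 469 to 872 without 1 library, and for D8 alone 545 and 588 against 938, and 616 to 1091. Without 1 library the rule asks for 2 reads only in the remaining library of that day, and so is looser.

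Replicate numbers were shared by the 3 days, but samples of the same number hardly deviated together (correlations 0.033, 0.057 and 0.032 across 1407 circRNAs), so they share only a number. With the replicate block 0 circRNAs and 2 gene sums were called, and the Pde4d circle had a log2 fold change of -3.92 at an adjusted p of 0.0845 in edgeR.

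Of 552 alternative values for 35 named circRNAs, 520 kept direction and side of the threshold, 23 newly passed it, 3 lost it and 6 turned. The 6 were circ_0001699 of Smad1 (-0.37 without D4 replicate 2, -0.28 without D8 replicate 2, and -0.37 to 0.81 over the libraries left out), circ_0001447 of Cped1 (0.0047 and 0.19 without the same libraries, range -0.52 to 0.19) and circ_0000529 of Samd4 (-0.47 with the replicate block and -7.99, a call, without D8 replicate 1, range -7.99 to 1.23). The 3 losses were those of the Pde4d circle, with the block and without either D4 library.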
